A study of Mus musculus with 20 samples.

Results

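The interleukin-1 family of cytokines and receptors was measured in mouse trachea through 10 genes: the ligands Il1a, Il1b, Il18 and Il33, the antagonist Il1rn, the receptors Il1r1, Il18r1 and Il1rl1, the accessory chain Il1rap and the decoy receptor Il1r2. Every probe that carried one of these names on the array was taken, which gave 18 probes of 9 genes. Il33 was found through the accession of its probe, which the array still lists under the older name 9230117N10Rik, so that 19 of the 41174 probes on the array belonged to the 10 genes. Of these, 13 were bright enough to be tested and every gene had at least 1 tested probe.

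The 20 samples were whole tracheas, 5 in each of 4 groups, each hybridised with a single dye to its own whole mouse genome array. Wild-type mice were C57/Bl6 and the Myd88KO mice lacked Myd88, the adaptor that carries the signal of most receptors of this family, in the whole body. Uninjured mice of both genotypes served as controls, and injured mice were killed 3 days after 2% polidocanol, a detergent that strips the tracheal epithelium, was given into the airway. The labels give an age of 4 months for all groups and no sex for any sample. The Myd88KO line had been back-crossed to C57/Bl6 but was bred apart from the wild-type colony, so that genotype and colony cannot be told apart. A whole trachea also holds cartilage, muscle, gland, fat and blood cells beside its epithelium.

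In this family a ligand binds its own receptor chain, an accessory chain joins them, and the paired intracellular domains recruit Myd88 and the kinases that activate NF-kB. Il1a and Il1b signal through Il1r1, Il18 through Il18r1 and Il33 through Il1rl1, which is also called ST2. The pathway is held in check outside the cell by Il1rn, which occupies Il1r1 without signalling, by the decoy Il1r2, which has no signalling domain, and by a soluble form of Il1rl1 that binds Il33.

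The results turn most on Il1b and on the 2 transcripts of Il1rl1, and the sequences before the starts of these genes are therefore shown. Neither Il1rl1 start was assigned here to one of its transcripts. RefSeq (GRCm38.p6) gives 17 start sites for the 10 genes. Each line holds the 250 bases before a start on the gene's own strand, with the letters TATAAA in capitals where present.
Il1b, chr2:129371140-129371389, minus strand: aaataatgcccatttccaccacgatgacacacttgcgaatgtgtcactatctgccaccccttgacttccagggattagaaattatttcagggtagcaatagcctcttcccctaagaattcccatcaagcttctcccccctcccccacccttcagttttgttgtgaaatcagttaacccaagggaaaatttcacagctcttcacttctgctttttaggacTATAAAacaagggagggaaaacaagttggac
Il1rl1, upstream start, chr1:40429320-40429569, plus strand: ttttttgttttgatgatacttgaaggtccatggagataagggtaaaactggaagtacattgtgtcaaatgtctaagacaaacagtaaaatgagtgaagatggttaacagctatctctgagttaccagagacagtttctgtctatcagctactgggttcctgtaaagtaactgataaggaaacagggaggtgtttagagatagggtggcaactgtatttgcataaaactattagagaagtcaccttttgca
Il1rl1, downstream start, chr1:40439379-40439628, plus strand: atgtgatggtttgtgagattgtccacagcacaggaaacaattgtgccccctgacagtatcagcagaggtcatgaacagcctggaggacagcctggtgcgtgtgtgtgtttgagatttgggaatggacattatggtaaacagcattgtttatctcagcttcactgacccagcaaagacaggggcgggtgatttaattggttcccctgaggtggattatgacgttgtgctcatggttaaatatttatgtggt
The run TATAAA began 31 bases before the Il1b start, and it occurred in 5 of the 17 windows and in 12.4% of all 32817 promoter windows of the same length. Neither Il1rl1 window held it. None of these 3 windows held the AP-1 letters TGANTCA (2 of the 17 windows, 6.75% of all), the STAT letters TTCNNNGAA (2 of the 17, 7.01% of all) or the NF-kB consensus (1 of the 17, that of Il1r1, and 3.90% of all), each searched on both strands. A match to letters is not a binding site, and the absence of one says only that the letters are not in this window. Probe positions given in the text are those of the deposited files, whose genome build is not stated, and are not to be set against these GRCm38.p6 positions.

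Signals are given on a log2 scale on which 0 is the 75th percentile of each array, so a difference of 1 is a 2-fold difference. Comparisons were made with limma over all 26063 tested probes, with Benjamini-Hochberg adjustment within each comparison, and a probe was called where its adjusted p was under 0.01. Values for 5 tracheas are listed in the order of replicates 1 to 5. Fewer cells of a type and less RNA per cell cannot be told apart in whole tissue.

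The targeted gene was measured first. Myd88 (chr9:119016408-119016467) stood between 1.94 and 2.28 in uninjured wild-type tracheas, between 1.60 and 2.04 in uninjured Myd88KO, between 2.36 and 2.80 in injured wild-type and between 1.54 and 2.09 in injured Myd88KO tracheas. The probe was well above background on all 20 arrays, so its signal did not mark the knockout. Whether the probe lies in the deleted part of the gene is not given in the sources used here. Myd88 was lower in injured Myd88KO than in injured wild-type tracheas by 0.77 (fitted difference -0.77, 95% CI -1.06 to -0.47, adjusted p = 0.00824), and the groups did not overlap, although the adjusted p was 0.0304 without replicate 5 of the injured Myd88KO group and 0.018 with the slide as a block.

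A pair of arrays and a pattern within 1 group bear on the results. Replicate 3 of uninjured wild-type held squamous epithelial transcripts at levels unlike the other uninjured wild-type tracheas (Krt13 at 7.08 against 1.57 to 2.53, Sprr1a at 6.47 against 1.19 to 2.96). Injured Myd88KO tracheas were not alike: replicates 2 and 4 had little Scgb3a2, a secretory cell product (3.07 and 3.21), and much of the macrophage marker Cd68 (2.51 and 2.32), whereas replicate 5 had Scgb3a2 at 9.10, within the uninjured range, and Cd68 at -1.27. Each of 5 slides held 1 array of every group, all with the same replicate number, and replicates 1 and 5 were scanned on 1 day and replicates 2, 3 and 4 on another. For some of the results that rest on these arrays, values without them are also given.

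**Figure D1:**
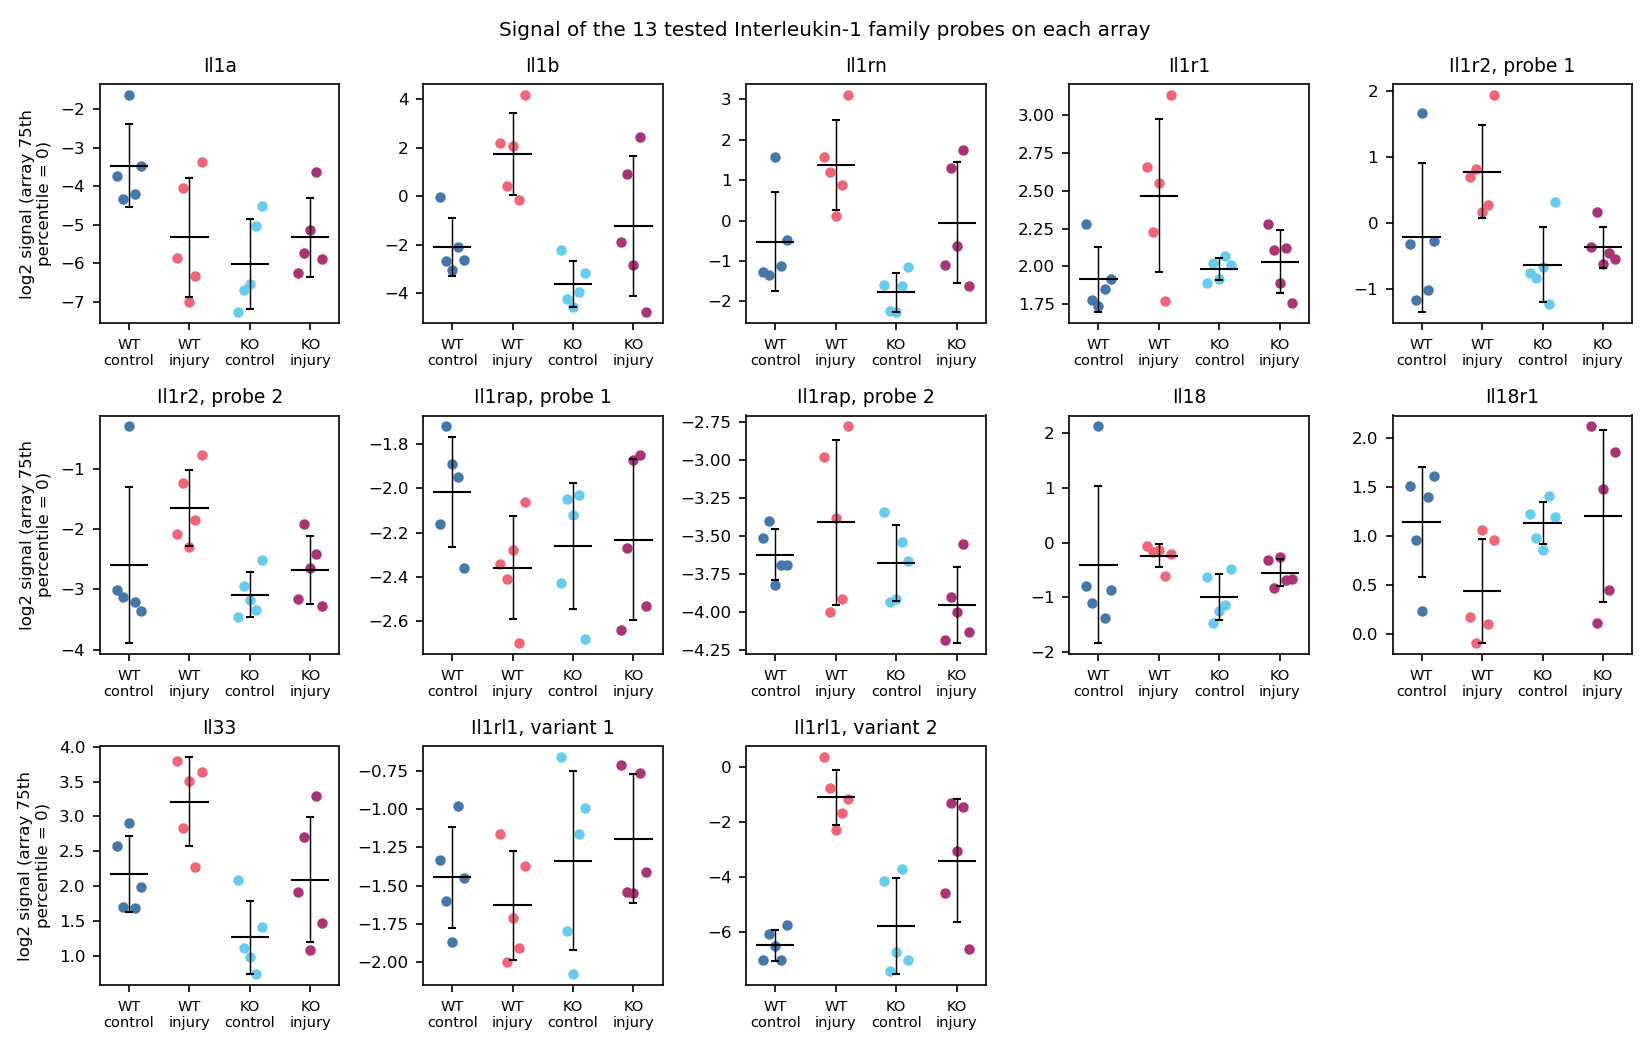
Log2 signal of the 13 tested Interleukin-1 family probes on each of 20 arrays, 5 tracheas in each of 4 groups (vertical axis; 0 is the 75th percentile of the array). Points are single tracheas, the long bar is the group mean and the whiskers are the SD. The 5 injured wild-type tracheas lie above all uninjured wild-type tracheas for the Il1rl1 variant 2 probe, and a single high uninjured wild-type trachea stands apart for Il1r2 and Il18.

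For injury in wild-type a single tested probe of the family was called, and it was not the brightest probe of its gene. That probe was bright enough to be tested only through the injured tracheas, where it was high. The tested probe for Il1rl1 variant 2, the soluble form of the Il33 receptor, rose in injured wild-type tracheas, the other probe named for that variant was too dim to be tested, and the probe for variant 1, the membrane form, gave no call. Il1b, the secreted inflammatory cytokine, and Il1rn, its antagonist, were higher on average after injury by 3.84 and 1.90 but missed the threshold, as did Il33, Il1r1 and Il1r2. Il1a averaged lower. Among the main probes (for each gene the brightest), 0 of 10 were called in this comparison by limma, 6 of 10 had an unadjusted p under 0.05 (26.4% of all tested probes had), and among all tested probes of the family 1 of 13 was called, against 5.26% of all tested probes. The median difference of the 10 main probes was 0.36, and that of all tested probes was 0.00.

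Il1b (chr2:129105464-129105523) encodes interleukin-1 beta, made as a precursor and released by activated myeloid cells. Its signal was -0.04, -2.66, -3.05, -2.10 and -2.65 in uninjured wild-type tracheas, and 2.19, 0.43, 2.08, -0.16 and 4.16 in injured wild-type tracheas. In uninjured Myd88KO it was -2.24, -4.24, -4.56, -3.94 and -3.17, and in injured Myd88KO -1.88, 0.90, -2.85, 2.45 and -4.79. The wild-type groups overlapped by 1 uninjured trachea, replicate 1, which lay just above the lowest injured one. The injured Myd88KO group spanned both ranges, with replicates 2 and 4 among the injured wild-type values and replicate 5 below every other array. Injury in wild-type gave a difference of 3.84 (SE 1.07, 95% CI 1.61 to 6.07, adjusted p = 0.0228), in the same direction on all 5 slides. The adjusted p ranged from 0.00492 to 0.0621 over the alternatives and fell to 0.00867 when replicate 5 of injured Myd88KO was left out, which leaves the difference at 3.84 and changes only the shared spread. In Myd88KO the difference was 2.40 (95% CI 0.16 to 4.63, adjusted p = 0.224), and it ranged from 1.48 without injured replicate 4 (adjusted p = 0.544) to 3.29 without injured replicate 5 (adjusted p = 0.0351). It was 4.42 among the replicates scanned on the first day and -0.63 among the others. Replicate 1 of uninjured wild-type, the highest of its group, was also the highest there for the neutrophil transcript S100a8, at 1.16 against -3.09 to -1.54.

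Between genotypes, Il1b was lower in uninjured Myd88KO than in uninjured wild-type on 5 of 5 slides, with a difference of -1.53 (95% CI -3.77 to 0.70, adjusted p = 1.0). After injury the difference was -2.97 (95% CI -5.21 to -0.74, adjusted p = 0.24). Without replicate 5 of injured Myd88KO it was -2.09 (adjusted p = 0.481). It was -0.62 among the replicates of the first scanning day and -6.51 among those of the second. The test of whether injury changed Il1b differently in the genotypes gave -1.44 (95% CI -4.60 to 1.72, adjusted p = 0.748).

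Il1a (chr2:129041111-129041170) encodes interleukin-1 alpha, which epithelial cells hold ready and release when they die. Uninjured wild-type tracheas gave -3.73, -4.32, -1.64, -4.19 and -3.48 and injured ones -5.86, -4.05, -7.01, -6.32 and -3.37. Uninjured Myd88KO tracheas gave -7.27, -6.70, -6.54, -5.04 and -4.52 and injured Myd88KO tracheas -6.24, -5.73, -5.13, -3.64 and -5.90. All 5 uninjured wild-type tracheas lay above all 5 uninjured Myd88KO tracheas, and the other pairs of groups overlapped. Its signal was well above background on 5 of 5 arrays of uninjured wild-type tracheas and on 2 of 5 in each other group, so the low values stand near the limit of detection. The difference between the uninjured genotypes was -2.54 (95% CI -4.03 to -1.06, adjusted p = 0.195). It was the only main probe of the 10 whose uninjured groups did not overlap, where 0.805% of all probes lay wholly lower in Myd88KO and 0.384% of all tested probes were called. Without replicate 3 of uninjured wild-type, the highest value, the difference between the uninjured genotypes was -2.08 (adjusted p = 0.53). With another background correction, which adds 50 to every signal and so shrinks differences between dim signals, it was -0.97. Injury in wild-type gave -1.85 (95% CI -3.33 to -0.36, adjusted p = 0.0959), lower on 3 of 5 slides, and in Myd88KO 0.69 (95% CI -0.80 to 2.17). The difference between these responses was 2.53 (95% CI 0.44 to 4.63, adjusted p = 0.419). Without replicate 3 of uninjured wild-type the wild-type injury difference was -1.39 (adjusted p = 0.21). A second Il1a probe was well above background on 4 arrays and was not tested.

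Il33 (chr19:29660344-29660403) encodes an alarmin stored in the nuclei of epithelial and endothelial cells. Its values were 2.57, 1.70, 2.91, 1.69 and 1.99 in uninjured wild-type and 3.80, 2.83, 3.51, 2.28 and 3.63 in injured wild-type tracheas. They were 2.09, 1.12, 0.98, 0.74 and 1.41 in uninjured Myd88KO and 1.92, 2.71, 1.08, 3.29 and 1.48 in injured Myd88KO tracheas. Each injured wild-type trachea exceeded the uninjured one on its slide, although the groups overlapped, and replicates 2 and 4 were again the highest of the injured Myd88KO group. The wild-type injury difference was 1.04 (SE 0.39, 95% CI 0.21 to 1.86, adjusted p = 0.0926) and the Myd88KO one 0.83 (95% CI 0.01 to 1.65, adjusted p = 0.252). Uninjured Myd88KO tracheas were lower than uninjured wild-type on 5 of 5 slides (difference -0.91, 95% CI -1.73 to -0.08, adjusted p = 0.79), and injured Myd88KO tracheas lower than injured wild-type by a fitted -1.11 (95% CI -1.93 to -0.29, adjusted p = 0.236). None of these passed the threshold. Without replicate 3 of uninjured wild-type the difference between the uninjured genotypes was -0.72.

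Il18 (chr9:50557947-50560075) encodes interleukin-18, which like Il1b is cut to its active form by caspase-1. In uninjured wild-type tracheas its signal was -0.79, -1.11, 2.12, -1.38 and -0.86, and after injury -0.06, -0.17, -0.13, -0.61 and -0.21. In Myd88KO it was -0.62, -1.46, -1.25, -1.14 and -0.49 before and -0.32, -0.82, -0.26, -0.68 and -0.66 after injury. Replicate 3 of uninjured wild-type, the trachea with squamous transcripts, lay above every other array, and the other 4 lay below all injured wild-type tracheas. The wild-type injury difference therefore moved from 0.17 (95% CI -0.77 to 1.1, adjusted p = 0.852) to 0.80 (adjusted p = 0.0154) when that trachea was left out. In Myd88KO it was 0.44 (95% CI -0.49 to 1.38, adjusted p = 0.631). Uninjured Myd88KO differed from uninjured wild-type by -0.59 with replicate 3 and by 0.04 without it.

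Il1rn (chr2:24357916-24357975) encodes the interleukin-1 receptor antagonist. Uninjured wild-type tracheas gave -1.27, -1.34, 1.58, -1.13 and -0.48 and injured wild-type tracheas 1.58, 1.19, 0.10, 0.89 and 3.10. Uninjured Myd88KO tracheas gave -1.60, -2.25, -2.27, -1.61 and -1.15 and injured Myd88KO tracheas -1.09, 1.31, -0.62, 1.75 and -1.63. Apart from replicate 3 of uninjured wild-type, all uninjured wild-type tracheas were below all injured ones, and in injured Myd88KO replicates 2 and 4 lay with the injured wild-type group. The injury difference was 1.90 in wild-type (95% CI 0.51 to 3.29, adjusted p = 0.0672) and 1.72 in Myd88KO (95% CI 0.33 to 3.11, adjusted p = 0.16), and the difference between them was -0.18 (95% CI -2.14 to 1.78, adjusted p = 0.96). Without replicate 3 of uninjured wild-type the wild-type value was 2.43 (adjusted p = 0.0158), and without that array and replicate 5 of injured Myd88KO it was 2.43 with an adjusted p of 0.008. The Myd88KO value was 2.86 on the first scanning day and 0.01 on the second. A second Il1rn probe was well above background on 6 arrays and was not tested.

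Il1rl1 is the receptor for Il33, and its transcripts were measured apart. The tested probe for variant 2 (chr1:40688351-40688410), whose product lacks the membrane and signalling parts, gave -7.03, -6.09, -6.51, -7.03 and -5.77 in uninjured wild-type tracheas, and none of these 5 arrays showed it well above background. In injured wild-type tracheas it gave 0.35, -0.78, -2.30, -1.67 and -1.15, on all 5 arrays well above background. The lowest injured trachea stood above the highest uninjured one (7.84% of all probes were separated in this way and direction). Because the uninjured level is only a bound, the rise between the group means is given as at least 13.1-fold (3.72 on the log2 scale). That bound carries no sampling error and holds only for the background correction used here. Another, given below, gave a smaller difference, but it adds 50 to every signal and so shrinks differences between dim signals. The fitted difference was 5.38 (SE 0.89, 95% CI 3.52 to 7.23, adjusted p = 0.000947), where 3.24% of all tested probes were called higher. On each of the 5 slides the injured array was the higher. The fitted differences take the dim signals as measured. With 1 array left out at a time the difference was 5.01 to 5.67 and the adjusted p 0.000107 to 0.00401, with the replicate block the adjusted p was 0.00232, and with another background correction the difference was 2.43 (adjusted p = 0.000571).

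In Myd88KO tracheas the variant 2 probe gave -4.14, -7.42, -6.73, -3.70 and -7.02 before injury (2 of 5 arrays well above background) and -4.60, -1.31, -3.07, -1.45 and -6.63 after injury (4 of 5). These groups overlapped: replicates 2 and 4 of the injured group lay within the injured wild-type range and replicates 1 and 5 within the range of uninjured Myd88KO. The injury difference was 2.39 (95% CI 0.54 to 4.25, adjusted p = 0.144), and 1.87 to 3.20 with 1 array left out (adjusted p 0.0139 to 0.365). It was called when arrays were weighted by their quality (3.50, adjusted p = 0.0063). By scanning day it was 4.01 and -0.03. Injured Myd88KO tracheas differed from injured wild-type by -2.30 (95% CI -4.16 to -0.45, adjusted p = 0.274), and the injury responses by -2.98 (95% CI -5.61 to -0.36, adjusted p = 0.443), a value that takes the dim uninjured wild-type signal as measured and so has no exact size. Without replicate 5 of injured Myd88KO the difference from injured wild-type was -1.50 (adjusted p = 0.525).

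The probe for variant 1 (chr1:40705585-40705644), the membrane receptor carried by mast cells and innate and helper lymphocytes, gave -1.33, -1.60, -1.87, -0.98 and -1.45 in uninjured and -1.16, -2.0, -1.71, -1.91 and -1.37 in injured wild-type tracheas. Myd88KO tracheas gave -0.66, -1.80, -2.08, -1.16 and -0.99 before and -0.71, -1.54, -1.55, -0.76 and -1.41 after injury. All 4 groups shared 1 range. The injury difference was -0.18 in wild-type (95% CI -0.74 to 0.37, adjusted p = 0.706) and 0.14 in Myd88KO (95% CI -0.41 to 0.70), and the genotype differences were 0.11 uninjured and 0.44 injured (95% CI -0.12 to 0.99). A second probe that the array assigns to variant 2, placed before both in the file positions, did not show the rise of the tested one. It gave -6.42, -7.03, -7.47, -7.22 and -6.65 in uninjured and -4.10, -6.68, -7.15, -7.17 and -6.86 in injured wild-type tracheas, and it was well above background on 1 of the 20 arrays, injured wild-type replicate 1. The result for variant 2 therefore rests on 1 probe. The probes differ in hybridisation, so their levels were not compared with each other.

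**Figure D2:**
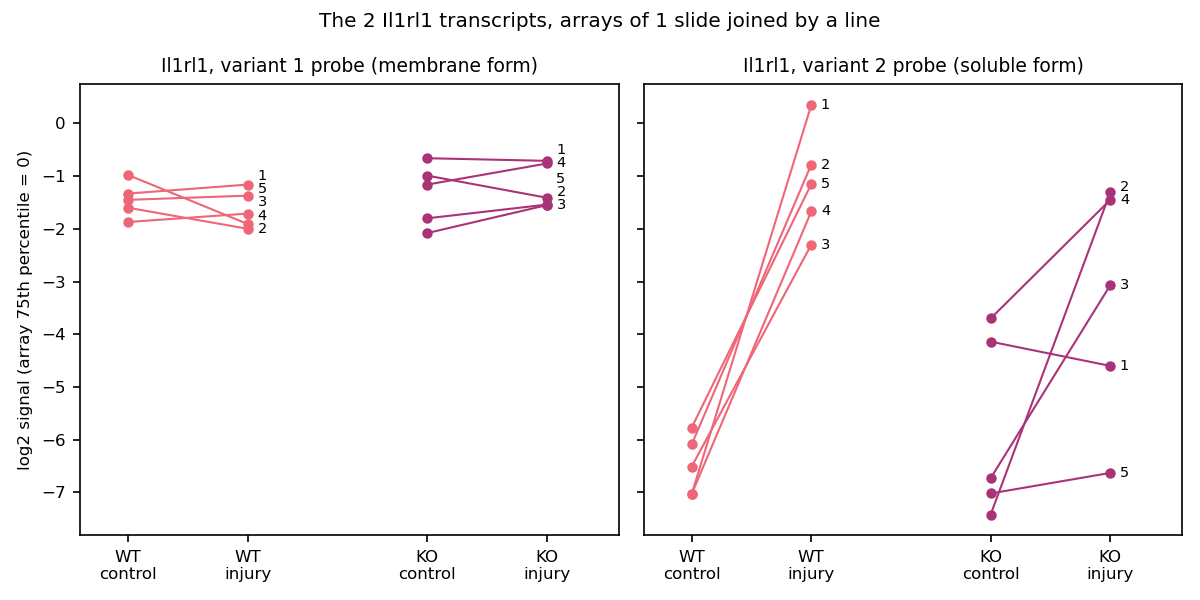
Log2 signal of the Il1rl1 variant 1 probe (left) and variant 2 probe (right) on each array (vertical axis; 0 is the 75th percentile of the array), with the uninjured and injured array of 1 slide joined by a line and labelled by replicate number. Variant 2 was higher in the injured wild-type trachea on all 5 slides, while the lines of the Myd88KO tracheas diverge and those of variant 1 run near level.

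Il1r1 (chr1:40555675-40555734), the signalling receptor for Il1a and Il1b, gave 2.28, 1.78, 1.74, 1.85 and 1.92 in uninjured wild-type tracheas and 2.66, 2.23, 2.55, 1.77 and 3.13 in injured ones. Myd88KO tracheas gave 1.89, 2.02, 1.92, 2.07 and 2.01 before and 2.28, 2.11, 1.89, 2.12 and 1.76 after injury. In wild-type 4 of 5 slides were higher after injury, and the Myd88KO groups overlapped. The wild-type difference was 0.55 (95% CI 0.15 to 0.95, adjusted p = 0.0652). With 1 array left out at a time it was 0.39 to 0.73 (adjusted p 0.00981 to 0.162). The value of 0.73, with the lowest adjusted p, was that without injured replicate 4. The Myd88KO difference was 0.05 (95% CI -0.35 to 0.45), and injured Myd88KO differed from injured wild-type by -0.44 (95% CI -0.84 to -0.04, adjusted p = 0.347). The test of the difference between the injury responses gave -0.50 (95% CI -1.07 to 0.06, adjusted p = 0.525).

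Il18r1 (chr1:40741012-40741071), the ligand-binding chain of the Il18 receptor, gave 1.51, 0.96, 0.24, 1.40 and 1.61 in uninjured and 0.18, -0.09, 1.06, 0.11 and 0.96 in injured wild-type tracheas. Myd88KO tracheas gave 1.23, 0.98, 0.86, 1.41 and 1.20 before and 2.12, 0.12, 1.48, 0.45 and 1.86 after injury. Within the injured Myd88KO group replicates 2 and 4 were the lowest, the reverse of Il1b, Il1rn and Il33. The wild-type injury difference was -0.70 (95% CI -1.44 to 0.04, adjusted p = 0.216), the Myd88KO one 0.07 (95% CI -0.67 to 0.81), and injured Myd88KO exceeded injured wild-type on 5 of 5 slides by a mean of 0.76 (95% CI 0.02 to 1.50, adjusted p = 0.382).

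Il1rap, the accessory chain shared by the Il1r1 and Il1rl1 complexes, gave small differences on its 2 tested probes. Its main probe (chr16:26378192-26378251) lay between -2.70 and -1.72 on all 20 arrays, with differences of -0.35 (95% CI -0.74 to 0.04) for injury in wild-type, 0.03 for injury in Myd88KO, -0.25 between uninjured and 0.13 between injured genotypes. A second probe (chr16:26362501-26362560), placed in transcript variant 2, lay between -4.18 and -2.78 and gave 0.21, -0.27, -0.06 and -0.54 in the same order, the last with a 95% CI of -0.98 to -0.10 and an adjusted p of 0.282. The probes thus differed in sign in all comparisons but that between uninjured genotypes. The remaining 3 probes of the gene were well above background on at most 1 array and were not tested. Among them was the probe placed in transcript variant 1, well above background on 0 of the 20 arrays. The main probe is placed on a cDNA clone for which the array gives no variant. No probe named for variant 1 was therefore tested.

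Il1r2 (chr1:40362239-40362298), the decoy receptor, gave -0.32, -1.17, 1.67, -1.01 and -0.27 in uninjured and 0.69, 0.82, 0.17, 0.27 and 1.93 in injured wild-type tracheas. Myd88KO tracheas gave -0.76, -0.84, -0.66, -1.22 and 0.31 before and -0.36, 0.16, -0.62, -0.46 and -0.55 after injury. Uninjured wild-type replicate 3 was again the exception: the other 4 lay below every injured wild-type trachea, and all injured Myd88KO tracheas lay below all injured wild-type ones, the highest at 0.16 against a lowest of 0.17. The wild-type injury difference was 1.00 (95% CI 0.09 to 1.91, adjusted p = 0.144), and it was 1.47 and called without replicate 3 (adjusted p = 0.00864). A second probe (chr1:40351196-40354143) gave 0.95 (adjusted p = 0.202) with that array and 1.52 (adjusted p = 0.00413) without it. Injury in Myd88KO gave 0.27 (95% CI -0.64 to 1.18). Injured Myd88KO differed from injured wild-type by -1.14 (95% CI -2.05 to -0.24, adjusted p = 0.269), lower on 5 of 5 slides, and the second probe by -1.03. On the second probe these groups overlapped, from -3.27 to -1.91 in injured Myd88KO and from -2.30 to -0.77 in injured wild-type tracheas. Il1r2 had the 1 main probe of 10 whose groups did not overlap in that comparison, where 1.25% of all probes lay wholly lower in Myd88KO.

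**Figure D3:**
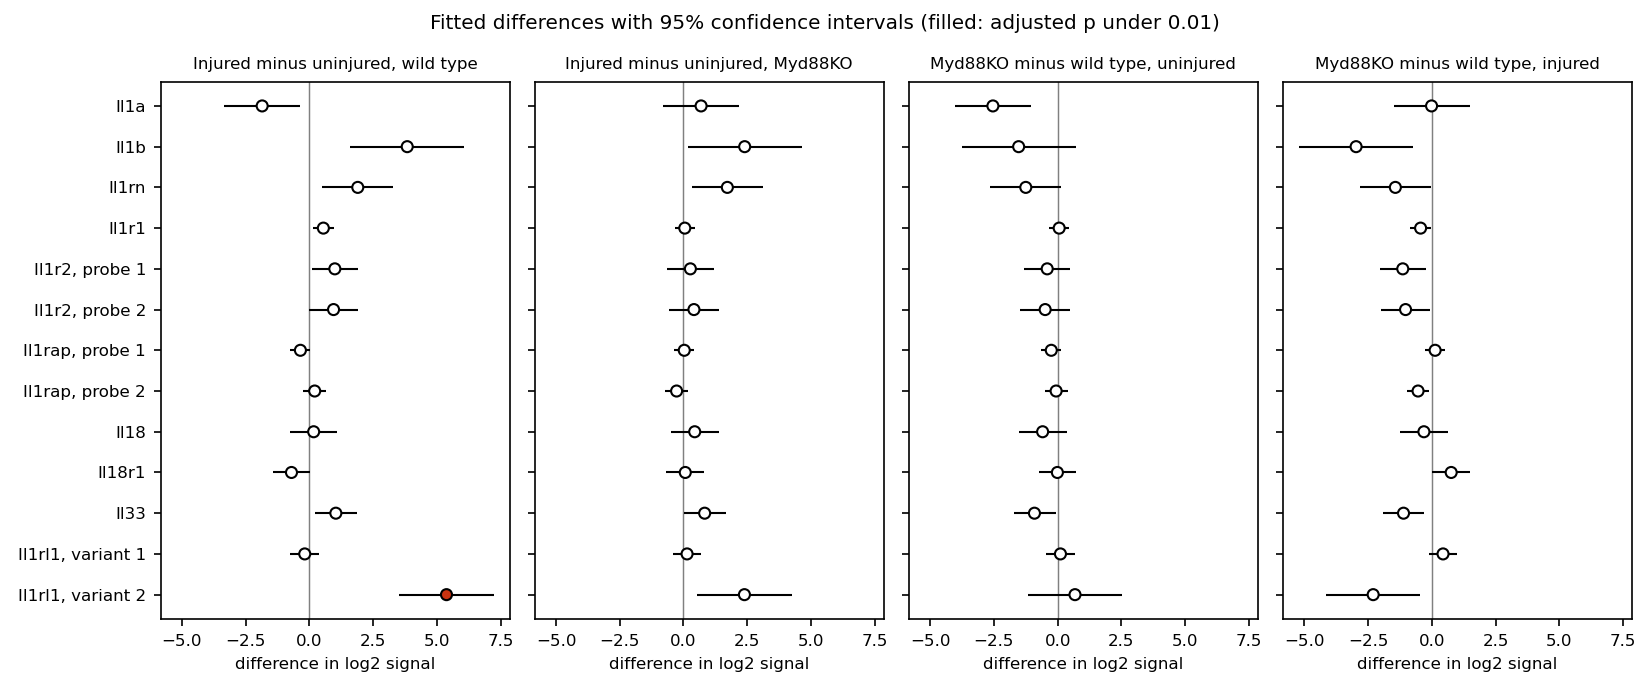
Fitted differences in log2 signal (horizontal axis) for the 13 tested Interleukin-1 family probes in 4 comparisons, each from 5 against 5 arrays, with 95% confidence intervals from limma; filled points have an adjusted p under 0.01. The only filled point is the Il1rl1 variant 2 probe for injury in wild-type, at 5.38, and the intervals of Il1b are the widest.

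The other comparisons held no called probe of the family. For injury in Myd88KO tracheas 0 of 10 main probes were called by limma against 0.376% of all tested probes, and 3 had an unadjusted p under 0.05, against 19.5% of all. All 10 had a positive difference, as did 42.3% of all tested probes, with a median of 0.36 against -0.07. Between uninjured genotypes 0 of 10 were called, against 0.384% of all tested probes, and 2 had an unadjusted p under 0.05, against 5.59% of all. In Myd88KO 8 were lower, as were 43.3% of all tested probes, and the median was -0.50 against 0.04. Between injured genotypes 0 of 10 were called, against 0.380% of all tested probes, and 6 had an unadjusted p under 0.05, against 12.5% of all. In Myd88KO 7 were lower, as were 54.7% of all tested probes, and the median was -0.37 against -0.03. When the injury responses of the genotypes were set against each other, 0 of 10 members and 0 of all tested probes were called (1 member and 2703 probes with an unadjusted p under 0.05). The count of called probes for injury in Myd88KO, 98, was 1075 without injured replicate 5 and 6 without injured replicate 2, with 0 of the 10 main probes called in either case. These comparisons share groups: the uninjured tracheas of a genotype enter both its injury response and the comparison between genotypes.

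The related ligands and receptors gave no call, where at most 5.26% of all tested probes were called in any comparison. With so few genes tested, the lack of a call says little about them. Of 5 other ligands, the Il36 cytokines and their relatives, 1 was bright enough to be tested. This gene, Il1f8, stood at 1.80 in uninjured wild-type replicate 3 and at -5.23 to -4.20 in the other 4, and gave -0.95 for injury in wild-type (95% CI -2.80 to 0.90, adjusted p = 0.532). The same array held the highest Il1f5, at 3.16, where the other uninjured wild-type tracheas were at -7.24 to -6.63, and the highest Il1f6, at 2.38 against -7.13 to -4.75. Il1f9 was well above background on 5 of 5 injured wild-type arrays, at -3.74, -3.58, -3.74, -4.69 and -1.50, and on 1 of 5 uninjured ones, replicate 3, at 0.14, above every injured value. It was not tested. Of 6 other receptors, co-receptors and decoys 4 were tested and 0 were called in any comparison by limma. They include Il18bp, the secreted Il18 inhibitor (0.79 for injury in wild-type, 95% CI 0.29 to 1.29, adjusted p = 0.0352), and Sigirr, a receptor that damps signalling (0.18, 95% CI -0.21 to 0.57). Il18rap, the accessory chain for Il18, was well above background on 1 injured array of each genotype.

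Among genes for maturation and release 1 of 7 tested was called for injury in wild-type, against 5.26% of all tested probes. It was Gsdmd, the pore through which Il1b leaves the cell (1.18, 95% CI 0.77 to 1.60, adjusted p = 0.00112). Casp1, the protease that cuts Il1b and Il18, gave -0.47 (95% CI -0.97 to 0.03, adjusted p = 0.222), Nlrp3 0.07 (95% CI -0.38 to 0.52) and Pycard 0.44 (95% CI -0.13 to 1.01). Of the 19 genes for signal transduction 0 were called higher and 1 lower in that comparison, where 5.26% of all tested probes were called. Ikbkg, the regulatory subunit of the IkB kinase, fell by 1.1 (fitted difference -1.1, adjusted p = 0.00239). Between injured genotypes 1 of the 19 was called, Myd88 itself, against 0.380% of all tested probes. No gene of these lists was called for injury in Myd88KO.

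Of 25 textbook target genes of the pathway 19 were tested. For injury in wild-type 5 were called higher and 1 lower, where 5.26% of all tested probes were called and 3.24% were called higher. Called or not, 13 of the 19 had a positive difference and 6 a negative one, with a median of 0.28 against 0.00 over all tested probes. Saa3, an acute phase protein, rose by 7.58 (adjusted p = 0.000407), from -6.80 to -3.11 in uninjured to 0.45 to 6.16 in injured wild-type tracheas. Lcn2, which binds bacterial siderophores, rose by 3.62 (adjusted p = 0.00207), and Ccl2, a monocyte chemoattractant, by 3.32 (adjusted p = 0.000482). Ccl20, an epithelial chemokine for dendritic cells and lymphocytes, fell (fitted difference -3.55, adjusted p = 0.000907). In injured Myd88KO tracheas Saa3 gave -3.87, 0.23, -2.35, 0.22 and -6.26 and Lcn2 gave -4.91, -1.30, -3.83, -1.21 and -4.83, with replicates 2 and 4 the highest for both, as for Il1b. For injury in Myd88KO 0 of the 19 were called, against 0.376% of all tested probes. Between injured genotypes 1 was called, against 0.380% of all tested probes: Lcn2, lower in Myd88KO (-3.95, adjusted p = 0.00381). A negative difference was found for 18 of the 19, as for 54.7% of all tested probes, with a median of -0.83 against -0.03. The other 6 of the 25, among them Il6 and Cxcl2, were too dim to be tested.

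For injury in wild-type, calls among the marker lists fell to neutrophil, macrophage, secretory and ciliated genes, and the other 10 lists held none. Of all tested probes 5.26% were called in that comparison and 0.376% for injury in Myd88KO. The part of these cells in the results above was not tested. Of 8 neutrophil markers 6 were tested and 1, Csf3r, was called for injury in wild-type (4.05, adjusted p = 0.0038). Their summed level (log2 of the summed signals) was 1.38 to 5.06 in uninjured wild-type, 3.89 to 8.02 in injured wild-type, -1.16 to 1.29 in uninjured Myd88KO and -1.04 to 5.43 in injured Myd88KO tracheas, and Ngp was not well above background on any array. Of 8 macrophage and monocyte markers 3 were called for injury in wild-type: Cd68 (3.27, adjusted p = 0.000907), Adgre1 (2.03, adjusted p = 0.00408) and Csf1r (1.55, adjusted p = 0.0077). Of the 8, 7 were higher (median 1.44). Their summed level overlapped in all groups (8.29 to 9.12, 8.42 to 9.06, 8.16 to 8.95 and 8.19 to 8.87 in the same order), but this sum is mostly Lyz2, at 8.06 to 9.04 over all arrays (-0.06 for injury in wild-type). Without Lyz2, a sum taken after the values were seen, it was 4.16 to 5.01 in uninjured wild-type, 4.97 to 6.01 in injured wild-type, 4.05 to 4.55 in uninjured Myd88KO and 4.22 to 5.64 in injured Myd88KO tracheas. The mast cell marker Cpa3 ranged from -1.41 to -0.67 in uninjured and from -2.75 to -0.48 in injured wild-type tracheas, and 0 of 5 tested mast cell markers were called. Summed secretory markers were at 10.17 to 11.07 in uninjured and 9.31 to 9.57 in injured wild-type tracheas, and at 10.34 to 11.01 and 9.11 to 10.6 in uninjured and injured Myd88KO. Of 4 tested, 2 were called lower for injury in wild-type and 1 in Myd88KO. Of 4 ciliated markers 1, Dnah5, was called lower for injury in wild-type (-3.94, adjusted p = 0.00319). All 4 had a negative difference, the smallest for Foxj1 (-0.41, adjusted p = 0.806). The summed ciliated level overlapped, at 4.05 to 5.39 in uninjured and 1.47 to 5.38 in injured wild-type tracheas.

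Across the 20 arrays, which share their slides and groups, the genes whose log2 signal followed each member most closely among 14617 genes were sought by Pearson's r, given as a description. Il1b ran with S100a8, a neutrophil calcium-binding protein (r = 0.98), and the chemokine Ccl4 (0.97), Il33 with S100a9 (0.94) and Esd (0.92), and Il1rn with Gda and Ltb4r1 (0.92 each). Il1r2 ran with Chit1 (0.93) and Pycard (0.90), Il1r1 with Jaml (0.88) and the oncostatin receptor Osmr (0.87), and Il18 with Ada (0.91) and Rab11a (0.90). The Il1rl1 variant 2 probe ran with the macrophage genes Cd68 and Msr1 (0.95 each), although it was well above background on 11 of the 20 arrays, whereas the variant 1 probe ran with Timm9 (0.82) and Zfp189 (0.80). Il1a had the weakest leading match, Tnf (0.76), followed by Ell2 (0.74). Il18r1 ran with 2610002M06Rik (0.94) and Dock9 (0.91), and Il1rap with Magt1 (0.86) and Ptpdc1 (0.82). The look-up for the variant 2 probe was added after its values were seen.

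**Figure D4:**
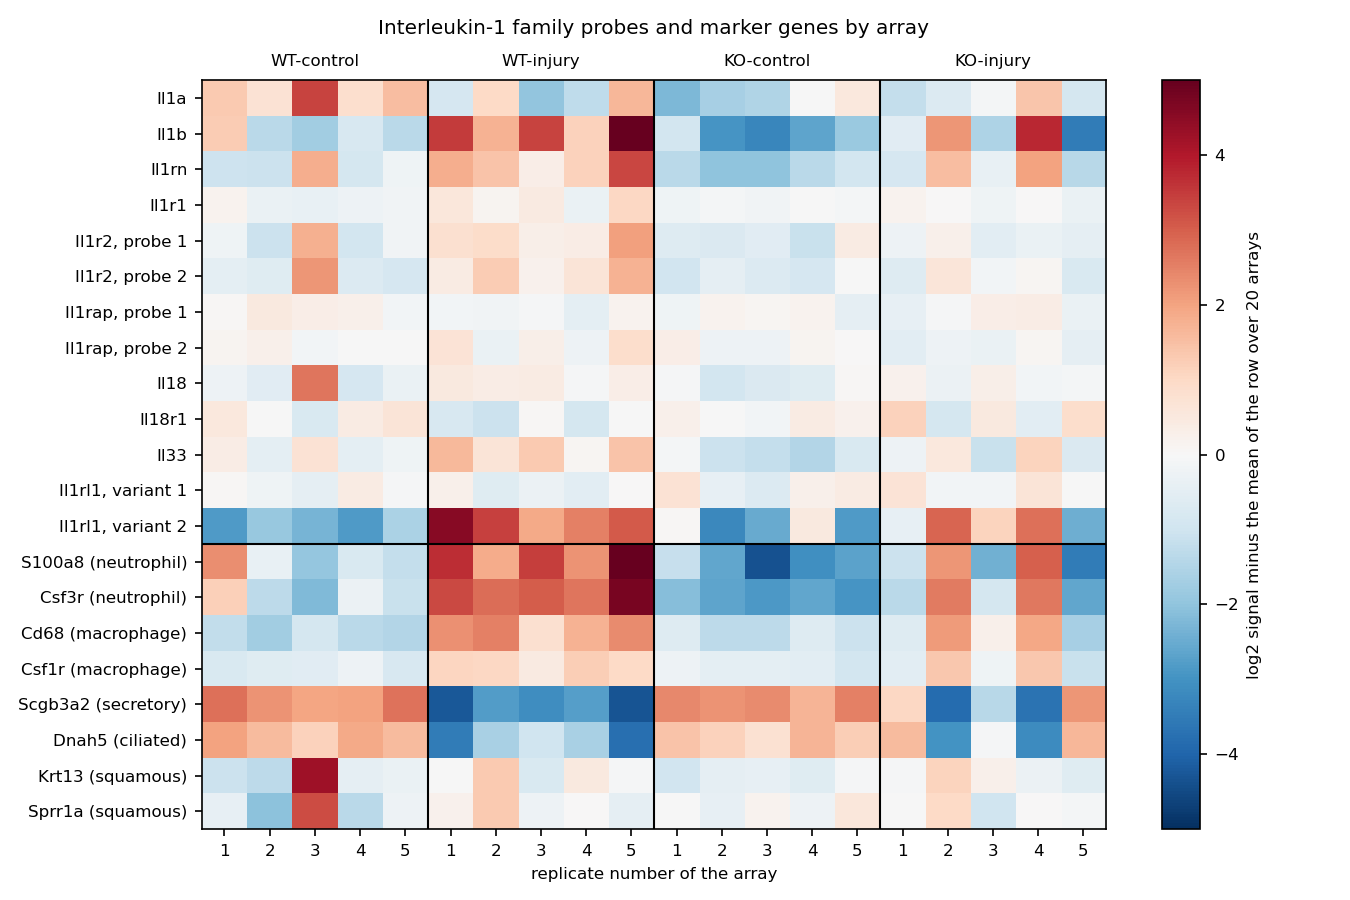
Log2 signal of the 13 tested family probes (above the line) and of 8 marker genes (below it) on each of 20 arrays, as the difference from the mean of the row (colour scale), with arrays grouped and numbered by replicate. In the injured Myd88KO group replicates 2 and 4 share the high Il1b, Il1rn, Il33 and Il1rl1 variant 2 and the low Scgb3a2 and Dnah5 of injured wild-type tracheas, and uninjured wild-type replicate 3 has the highest Krt13 and Sprr1a of all arrays.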

How the data were processed

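The authors deposited, for each of the 20 arrays, the scanner output of Agilent Feature Extraction, a tool that the submitters' processing notes name. Its version, 9.5.1.1, is the one given in that output. There the intensity of a spot has its background and spatial trend removed, and arrays are not scaled to one another. The authors also deposited a table of values that holds the same intensity rounded (ratio 0.995 to 1.00). The study's methods add GeneSpring. No column belonged to another study. Depth is not counted on arrays, so their number, 5 in each group, limits the precision. Control spots (1639 of the 45018 on an array) and 1960 outlier values over all arrays were removed. Spots of 1 probe were averaged (Il1b, Il18 and Myd88 were each spotted 10 times). Between 57.5% and 67.8% of spots were well above background, and arrays of 1 group correlated at 0.955 to 0.990.

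From the deposited intensity, log2 values minus the 75th percentile of each array were computed. A probe was tested if well above background on at least 10 of 20 arrays, after the study's exclusion of transcripts present in under 50% of samples, which left 26063 probes. All arrays were fitted together by lmFit, contrasts and eBayes of limma 3.58.1 (R 4.3.3) for 5 contrasts, with Benjamini-Hochberg adjustment within each and a threshold of 0.01. The study's methods name a one-way parametric analysis of variance over the wild-type and KO samples at the same threshold. The study reports counts for pairs of groups. An analysis of variance over all groups at once was not run. A plain t-test with pooled variance on the groups compared, which for a pair of groups equals that analysis, was run as an alternative. For a probe that no array of a group showed well above background, only a bound of the fold is given: the dimmer arrays each count at their lowest signal well above background, or at the probe's signal where that was higher, and their mean log2 value is subtracted from that of the brighter group.

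Named are all 10 members, with the brightest probe of each as its main probe, the 2 genes that follow each member most closely, and at most 3 called genes of each of 5 pathway lists in each direction, beside genes of 14 marker lists. Other list genes, Il1f5, Il1f6, Il1f9, Il18bp, Sigirr, Il18rap, Casp1, Nlrp3 and Pycard among them, were named after their values were seen. The members and lists were chosen with earlier results of these data known. The labels give 5 samples of each group and the study calls them biological replicates. Same-numbered arrays shared a slide. Over all probes their deviations from the group means correlated at 0.252 to 0.478 between the uninjured genotypes and at -0.261 to 0.459 between other groups. The fit was tested on simulated data for injury in wild-type (25843 probes): it called 31 of 67 probes changed by 1 on the log2 scale, 61 of 67 changed by 2, 65 of 66 changed by 4, and 0 of 25643 that were not changed. The simulated noise was normal and drawn apart for each probe and array, with no deviant arrays and no slide effect. These shares may therefore not hold for the real arrays. Promoters were taken from RefSeq (GRCm38.p6). Protein sequences were not used here. Alternatives were background correction (the normexp method of limma, with 50 added to every signal), normalisation, filter, array weights, blocks, samples in the fit and leaving out each array.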

Additional observations from a re-analysis of the deposited data

Results flagged for a closer look

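In 52 sets of 5 arrays, 1 for each tested probe and group, an array was looked for that stood apart from the other 4. Such arrays were found in 3 sets, and chance alone gives about 1 in 20, or 2.6 sets. Uninjured wild-type replicate 3 was at -0.30 for the second Il1r2 probe, where the other 4 uninjured wild-type tracheas were at -3.36 to -3.01, so that the gap took 0.885 of the group's range. The same trachea was at 2.12 for Il18, where the others were at -1.38 to -0.79 (0.834 of the range). It also held the highest Krt13 and Sprr1a of its group, and the part of that tissue in the Il18 and Il1r2 values was not tested. Injured wild-type replicate 4 was at -0.61 for Il18, where the others of its group were at -0.21 to -0.06 (0.716 of the range), a gap of less than 1 on the log2 scale.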

How the results depend on the processing

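The number of arrays, 5 in each group, and the signal over background set the limits: Il1a outside uninjured wild-type and Il1rl1 variant 2 in uninjured tracheas were well above background on at most 2 of 5 arrays of a group. Of 819 values of 65 results under settings other than leaving out 1 array, 798 kept their direction and side of the threshold, 13 changed sign and 8 became called, and of 1300 with 1 array left out the counts were 1261, 34 and 5. The causes of the changes were not tested.

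For injury in wild-type the number of called main probes, 0 of 10, was 1 with only the groups compared in the fit (Il1b), 2 with array weights (Il1b and Il1r1), 1 with the most variable probe of each gene or with any tested probe counted (Il1rl1), 2 without uninjured wild-type replicate 3 and injured Myd88KO replicate 5 (Il1rn and Il1r2), and 0 to 1 with 1 array left out. For injury in Myd88KO it was 1 with array weights (Il1rn, 2.42, adjusted p = 0.00878). The joint removal of 2 arrays and the count over any tested probe were chosen after seeing the data. Over all probes 1372 were called for injury in wild-type, 2599 with array weights, 2106 with a block for scanning day and 665 (without uninjured wild-type replicate 2) to 1843 (without injured Myd88KO replicate 5) with 1 array left out. For injury in Myd88KO 98 were called, 1901 with array weights, 361 with that block, 56 with median centring, 60 without the filter, 0 by the plain t-test or with only the groups compared, and 6 (without injured Myd88KO replicate 2) to 1075 (without replicate 5) with 1 array left out. Between uninjured genotypes 100 were called, 180 with array weights and 46 by the t-test, and between injured genotypes 99, 38 with only the groups compared and 21 by the t-test. With the replicate number as a block, which pairs arrays of 1 slide, 0 main probes were called in any comparison and Il1rl1 variant 2 stayed called for injury in wild-type (adjusted p = 0.00232).

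Differences that changed sign were all small or uncalled. Between injured genotypes Il1a (-0.01) was 0.06 after quantile normalisation, 0.54 with array weights, 0.14 without both arrays, and -0.43 to 0.48 with 1 array left out. Between uninjured genotypes the Il1r2 probes were 0.06 and 0.08 without both arrays (-0.65 to 0.06 and -0.68 to 0.08 with 1 left out), Il18 was 0.04 (-0.83 to 0.04), Il18r1 was 0.02 with median centring (-0.23 to 0.11), Il1rl1 variant 1 was -0.12 with array weights (-0.06 to 0.30) and the second Il1rap probe was -0.14 to 0.01. For injury in Myd88KO Il18r1 was -0.25 with array weights and -0.09 without both arrays (-0.16 to 0.34), Il1r1 was -0.01 to 0.12, Il1rap -0.07 to 0.13 and Il1rl1 variant 1 -0.04 to 0.31. For injury in wild-type Il18 was -0.07 to 0.80. For the difference between the injury responses Il1rn was 0.25 with array weights (-0.71 to 0.25), Il18 was -0.07 with array weights and -0.33 without both arrays (-0.36 to 0.52), and Il33 was -0.50 to 0.05.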
